A study of Mus musculus with 3 samples.

Results

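RNA levels of 10 genes that write, maintain or remove DNA methylation were examined in 3 mouse leukemias that lack miR-196b. The genes were taken by symbol from the deposited expression table, which gave 28074 symbols in all, and each of the 10 was found on 1 row. They are the methyltransferases Dnmt1, Dnmt3a and Dnmt3b, the cofactor Dnmt3l, the Dnmt1 partner Uhrf1, the dioxygenases Tet1, Tet2 and Tet3, and the isocitrate dehydrogenases Idh1 and Idh2. The libraries came from 3 mice of 1 group with acute myeloid leukemia. All 3 mice shared a homozygous loss of miR-196b, floxed Dnmt3a, Flt3-ITD on both alleles and an Mx1-Cre transgene, in which the interferon-inducible Mx1 promoter drives the recombinase. Flt3-ITD is an internal tandem duplication that activates the Flt3 receptor. The genotype field gives Dnmt3a fl/fl, while the titles give Dnmt3a+/-, and the labels name neither the floxed exons nor an inducer of Cre. Splenocytes were taken from moribund mice, red blood cells were lysed, and cells bearing the receptor c-Kit were enriched on magnetic beads before RNA extraction. The labels do not give the age of the mice. The study compared these leukemias with miR-196b-intact leukemias from another series. Those were not used here, so no genotype difference was tested and each value belongs to 1 of 3 mice without miR-196b. Mice are numbered 1 to 3 in the order of their records.

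DNA methylation in mammals is laid down on unmethylated CpG sites mainly by Dnmt3a and Dnmt3b and copied to the new strand at replication by Dnmt1, which Uhrf1 guides to hemimethylated sites. Tet enzymes oxidise methylcytosine in a reaction that consumes alpha-ketoglutarate, the product of Idh1 and Idh2, and base excision repair can then restore the unmodified base. Loss or mutation of DNMT3A, TET2, IDH1 and IDH2 is recurrent in human acute myeloid leukemia, and mouse Dnmt3a restrains self-renewal of blood stem cells.

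The deleted microRNA pairs with its targets through bases 2 to 8 of its mature strand. The RefSeq sequence of miR-196b-5p (GRCm38.p6, chr6:52230129-52230150, minus strand) is shown first, with those bases in capitals, because it gives the letters searched for in the enzymes' transcripts. The searched letters were ACTACCT, which pairs with bases 2 to 8, and CTACCTA, which pairs with bases 2 to 7 and ends in A. They were read on the transcript strand only and overlap by 6 letters. The sites found in 3′ UTRs of GENCODE M21 transcripts (GRCm38) follow, with the matched letters in capitals and 10 bases on either side.
miR-196b-5p: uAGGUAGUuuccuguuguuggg
Dnmt3a, chr12:3910222-3910248, plus strand: ccctcagcccCTACCTAttctccccaa
Tet1 first site, chr10:62810511-62810538, minus strand: aacataacaaACTACCTAtaaatgaaga
Tet1 second site, chr10:62809672-62809698, minus strand: cttcctgctcCTACCTAtgtgctggga
Tet2, chr3:133465895-133465921, minus strand: agcactttgcCTACCTAagctttggca
Of the 10 genes, 3 held a match: Dnmt3a, Tet1 and Tet2. The first Tet1 site holds both words and so matches 8 letters. The 3′ UTRs of these genes are long, at 6696 nt for Dnmt3a, 7962 nt for Tet1 and 3058 nt for Tet2, against a median of 1144 nt over 11935 genes with a mean of at least 1 TPM. A match was present in 11.4% of those genes, and in 32.5% of the 1750 whose 3′ UTR was at least as long as that of Tet2. Tet3, with a 3′ UTR of 5669 nt, held none. A match describes letters, and whether the loss of miR-196b moved these genes was not tested.

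Values are TPM (transcript abundance scaled to a fixed library total), a level per transcript length that allows genes to be set beside each other within a library. A level of at least 1 TPM in all 3 mice was reached by 9 of the 10 genes. Dnmt3l was the exception. The same threshold was met by 50.7% of all symbols. In order of mean level the genes were Idh2, Uhrf1, Dnmt1, Dnmt3a, Tet3, Tet2, Dnmt3b, Idh1, Tet1 and Dnmt3l. The median of the 9 genes with a mean of at least 1 TPM was 53.2 TPM, against 17.5 TPM over all 15181 such genes. Ranges over the mice overlapped for 4 of the 9 neighbouring pairs: Idh2 with Uhrf1, Dnmt3a with Tet3, Tet2 with Dnmt3b, and Dnmt3b with Idh1. For the other 5 pairs the higher gene was higher in every mouse with no overlap of ranges. Mouse 1 was the highest for 4 of the 9 genes at or above a mean of 1 TPM (48.6% of all such genes), mouse 2 for 3 (31.1%) and mouse 3 for 2 (20.3%). The lowest was mouse 1 for 2 of them (24.4%), mouse 2 for 3 (33%) and mouse 3 for 4 (42.6%). After scaling to a common upper quartile each mouse was the highest for 3 of the 9 (35.6%, 34% and 30.5% of all genes for mice 1, 2 and 3) and the lowest for 3 (36%, 33.5% and 30.5%). These counts lie near the shares of all genes, and no mouse was the highest or lowest for all of the enzymes. In bulk RNA, fewer cells of a type and less RNA per cell cannot be told apart.

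**Figure D1:**
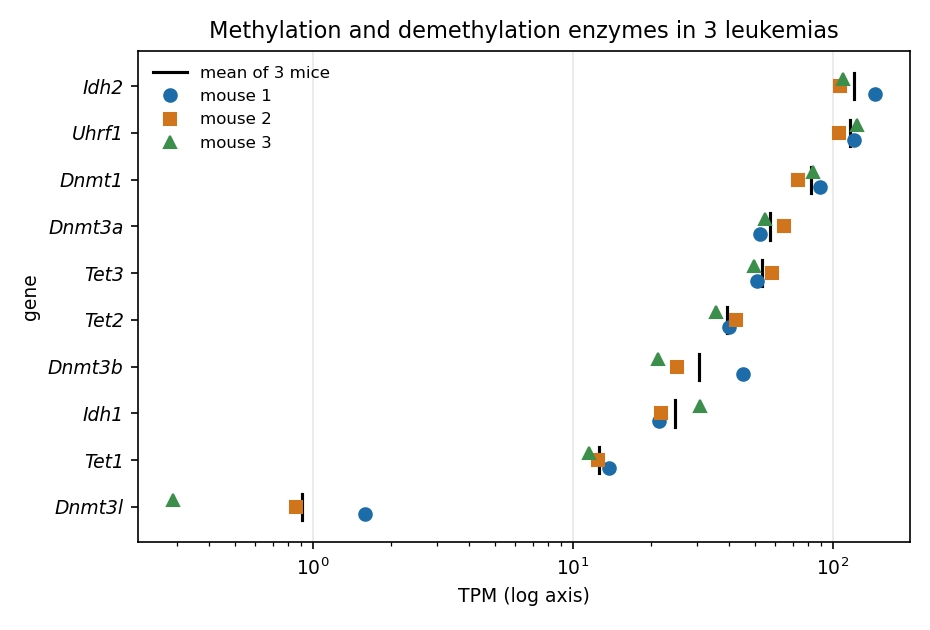
Level of each of the 10 enzyme genes in TPM on a log axis, 1 symbol per mouse, with the mean of the 3 mice as a black bar. All genes but Dnmt3l lie above 10 TPM in every mouse, while Dnmt3l lies between 0.29 and 1.58 TPM.

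Dnmt3a, the engineered de novo methyltransferase (chromosome 12, 3806007 to 3914443 in GRCm38), stood at 52.2, 64.9 and 54.6 TPM in mice 1, 2 and 3. Its mean was 57.3 ± 6.73 TPM (SD, n = 3), at percentile 80.5 of genes with a mean of at least 1 TPM. Mouse 2 was the highest and mouse 1 the lowest, 1.24-fold apart. A gene-level value does not say which exons its reads came from. Transcripts that lack the floxed exons can still add to it, so this level does not check the deletion. Dnmt3aos, an antisense gene, overlaps Dnmt3a exons on the other strand and had no value to set beside it here.

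Dnmt3b, the second de novo methyltransferase (chromosome 2, 153649450 to 153687730), stood at 45.1, 25.1 and 21.2 TPM. Its mean was 30.5 ± 12.8 TPM (SD, n = 3). Mouse 1 was well above the others, which lay close together. Dnmt3b was the only 1 of the 9 genes with a mean of at least 1 TPM whose highest mouse was at least 2-fold over its lowest, at 2.13-fold. Such a range was found for 13.8% of all genes with a mean of at least 1 TPM and for 7.64% of those with a mean of at least 5 TPM. The call did not hold after scaling the libraries to a common upper quartile, where the range was 1.93-fold, nor without mouse 1 or without mouse 3. Mouse 2 was 1.18-fold over mouse 3. Of its 31-base words, 15.5% also occur in Dnmt3c, a near copy, whose row (Gm14490, the older symbol) had 0.539, 0.147 and 0.456 TPM, all below those of Dnmt3b.

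Within a library a ratio of 2 genes does not depend on the library's scaling. Dnmt3a exceeded Dnmt3b by 1.16-fold in mouse 1, 2.58-fold in mouse 2 and 2.58-fold in mouse 3. Dnmt3a made up 52.8%, 71.4% and 71.8% of the summed TPM of the Dnmt3 genes. Mouse 1 thus stood apart with the most even pair, and in mice 2 and 3 Dnmt3a was the larger part. The sums themselves were 99.0, 90.9 and 76.1 TPM.

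Dnmt3l, which has no catalytic activity of its own and stimulates Dnmt3a and Dnmt3b in germ cells (chromosome 10, 78041947 to 78063622), stood at 1.58, 0.860 and 0.290 TPM. Its mean was 0.911 ± 0.648 TPM (SD, n = 3), and it made up 1.60%, 0.946% and 0.381% of the Dnmt3 sum. Mouse 1 was the highest, as for Dnmt3b, at 5.45-fold over mouse 3. Dnmt3l-ps1, a pseudogene row of the table, was higher, at 5.09, 6.24 and 3.67 TPM. No 31-base word of the Dnmt3l transcript searched occurs in another gene's transcripts in GENCODE M21. The annotation behind the values is not given, so this search cannot say whether Dnmt3l and the pseudogene shared reads. The exons of Dnmt3l overlap those of Aire on the other strand. Aire had 4.22, 5.02 and 3.52 TPM, and whether reads were assigned by strand is not given in the sources used here.

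**Figure D2:**
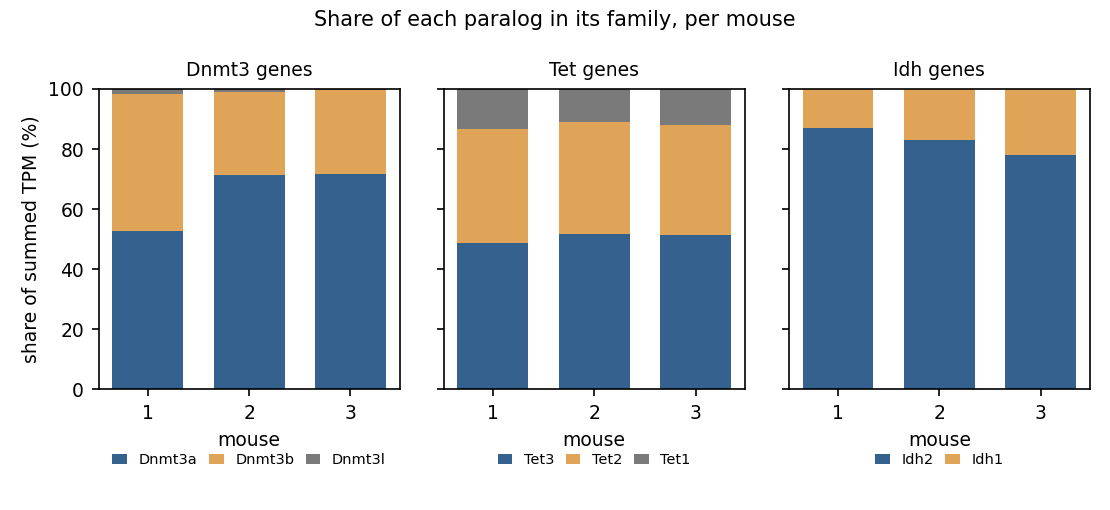
Share of the summed TPM of each family taken by each gene, as stacked bars from 0 to 100% for mice 1, 2 and 3. The Dnmt3a share is 52.8% in mouse 1 and 71.4% and 71.8% in the others, the Tet shares differ by at most a few percentage points, and the Idh2 share runs from 87.1% to 78.0%.

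RefSeq start-site windows (GRCm38.p6, 250 bases before to 50 after the start) were available for all 10 genes, as 18 windows. One window of Dnmt3a and one of Dnmt3l are shown, with CpG sites in capitals, because these paralogs are the highest and lowest of the Dnmt3 genes and differ in the density of the very sites these enzymes act on.
Dnmt3a, chr12:3806910-3807209, plus strand: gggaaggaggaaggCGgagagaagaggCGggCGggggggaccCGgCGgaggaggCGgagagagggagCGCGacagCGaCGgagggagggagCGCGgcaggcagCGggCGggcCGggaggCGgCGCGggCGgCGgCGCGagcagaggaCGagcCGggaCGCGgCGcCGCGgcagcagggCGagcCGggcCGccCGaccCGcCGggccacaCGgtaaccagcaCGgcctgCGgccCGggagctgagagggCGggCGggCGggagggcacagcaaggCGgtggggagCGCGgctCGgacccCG
Dnmt3l, chr10:78042037-78042336, plus strand: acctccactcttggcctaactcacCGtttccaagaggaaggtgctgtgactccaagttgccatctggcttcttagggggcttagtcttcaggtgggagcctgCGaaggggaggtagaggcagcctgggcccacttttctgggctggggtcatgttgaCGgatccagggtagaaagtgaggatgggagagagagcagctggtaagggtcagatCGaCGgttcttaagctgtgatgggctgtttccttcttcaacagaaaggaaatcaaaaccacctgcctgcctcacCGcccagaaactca
The Dnmt3a window holds 47 CpG sites and the Dnmt3l window 6, against a median of 7 over all 32851 windows and 19 over windows of genes with a mean of at least 1 TPM. The other Dnmt3l windows held 4 and 3 sites, and the other Dnmt3a windows 46 and 18. The Dnmt3b window held 30. Methylation of these sites was not measured in this experiment, and the gene-level values do not say which start site was used.

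Dnmt1, the maintenance methyltransferase (chromosome 9, 20907209 to 20959888), stood at 89.3, 73.5 and 84.1 TPM, with a mean of 82.3 ± 8.05 TPM (SD, n = 3). Uhrf1, its guide to hemimethylated DNA (chromosome 17, 56303321 to 56323486), stood at 120, 106 and 124 TPM, with a mean of 117 ± 9.86 TPM (SD, n = 3). Both genes were lowest in mouse 2, as deposited and after upper-quartile scaling. The ranges were narrow, 1.21-fold for Dnmt1 and 1.18-fold for Uhrf1. The ratio of Uhrf1 to Dnmt1 was 1.35, 1.44 and 1.48, a mean of 1.42 ± 0.0652 (SD, n = 3). Uhrf1 shares 29.4% of its 31-base words with other genes, mainly the copies Gm5648 and Gm15953, whose values did not exceed 0.453 and 1.54 TPM in any mouse.

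Both genes belong to the S phase program, so 14 genes of DNA replication and the cell cycle were set beside them. All 14 were detected in every mouse, as were 50.7% of all symbols. All 14 were lowest in mouse 2, against 33% of all genes with a mean of at least 1 TPM. After upper-quartile scaling 11 of 14 were lowest there, against 33.5%. Mouse 3 was the highest for 11 of them as deposited (20.3% of all genes) and for 13 after scaling (30.5%). Their summed level was 1507, 1277 and 1736 TPM. Mki67, a marker of cycling cells, had 143, 133 and 201 TPM, and Top2a, the most abundant of the list, had 280, 276 and 363 TPM. The same mice stood out for other lists: erythroid markers were lowest in mouse 2 and highest in mouse 3 for 5 of 5 genes with a mean of at least 1 TPM, under both scalings (38.2, 27.97 and 80.5 TPM in sum over 6 found), and neutrophil markers were highest in mouse 3 for 8 of 8. Dnmt1 and Uhrf1 shared the low mouse with the cell cycle and erythroid lists, while the highest mouse was 3 for Uhrf1 and, as deposited, 1 for Dnmt1. After scaling it was mouse 3 for both. The list was chosen with earlier results of these data known, and the part that proliferation or cell composition has in the levels of Dnmt1 and Uhrf1 was not tested.

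**Figure D3:**
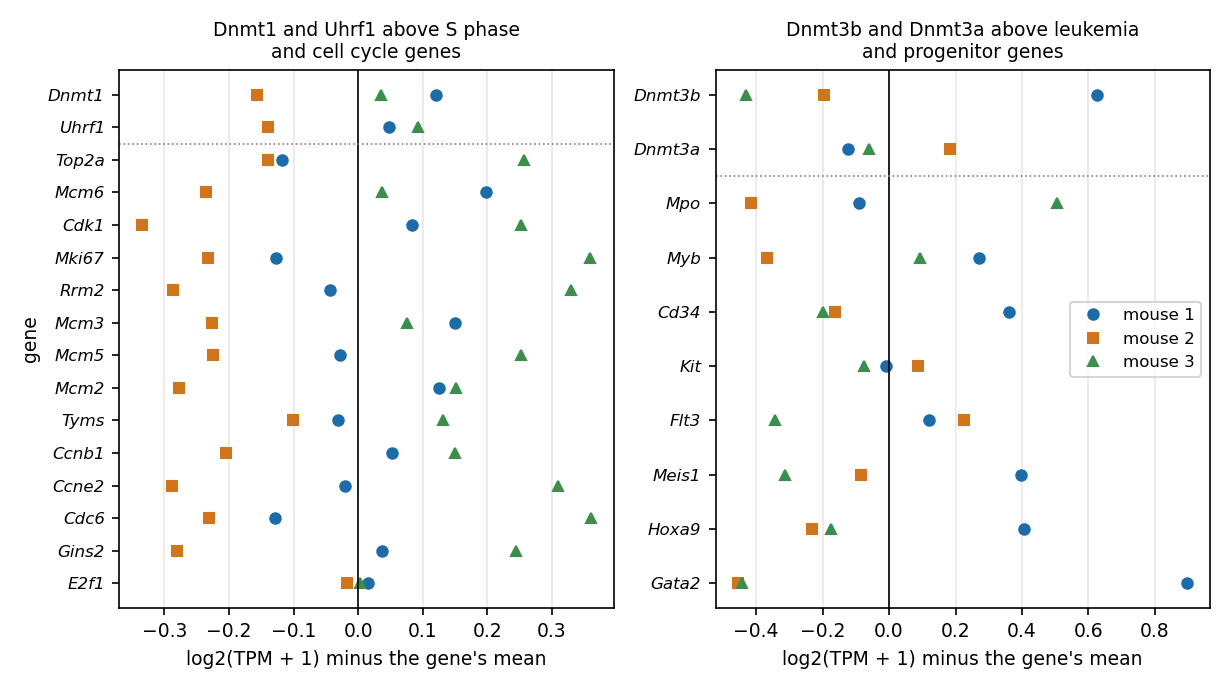
Difference of each mouse from the gene's own mean on the log2(TPM + 1) scale, 1 row per gene. On the left Dnmt1, Uhrf1 and all 14 S phase and cell cycle genes have mouse 2 as the lowest point. Of all genes with a mean of at least 1 TPM, 33% are lowest there, and after upper-quartile scaling 11 of the 14 are. On the right Dnmt3b has mouse 1 as the highest point, as have 5 of the 8 leukemia and progenitor genes. Of all genes with a mean of at least 1 TPM, 48.6% are highest in mouse 1. Dnmt3a is highest in mouse 2.

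E2F factors activate genes of S phase and bind words of the form TTTCCCGC, TTTCGCGC, TTTGCCGC and TTTGGCGC. These 4 words were searched on both strands of every start-site window, where they can overlap each other only on opposite strands. At least 1 was present in 2.26% of all windows and in 3.76% of windows of genes with a mean of at least 1 TPM. Among the 10 enzyme genes, Dnmt1 and Uhrf1 each had 1 window with a match, and the other 8 had none. Counted by window, as in these shares, 2 of the 18 held a match. The windows are shown with the matches in capitals.
Dnmt1, chr9:20952574-20952873, minus strand: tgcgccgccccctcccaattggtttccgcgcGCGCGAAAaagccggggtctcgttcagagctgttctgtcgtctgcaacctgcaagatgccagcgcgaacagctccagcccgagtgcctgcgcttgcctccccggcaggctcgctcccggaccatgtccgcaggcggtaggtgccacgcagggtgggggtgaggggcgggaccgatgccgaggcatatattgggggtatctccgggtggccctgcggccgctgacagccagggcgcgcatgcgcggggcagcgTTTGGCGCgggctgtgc
Uhrf1, chr17:56304063-56304362, plus strand: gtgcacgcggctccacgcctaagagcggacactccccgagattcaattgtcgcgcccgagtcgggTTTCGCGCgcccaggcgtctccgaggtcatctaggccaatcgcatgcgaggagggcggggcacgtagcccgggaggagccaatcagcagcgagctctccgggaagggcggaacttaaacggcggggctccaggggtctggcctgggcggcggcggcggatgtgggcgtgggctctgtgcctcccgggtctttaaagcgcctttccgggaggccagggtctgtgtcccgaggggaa
The Dnmt1 window holds 2 matches, which begin 219 bases before and 33 bases after the start, and the Uhrf1 window holds 1, which begins 185 bases before it. Each of these windows holds 33 CpG sites. The other 2 windows of Dnmt1 and the other window of Uhrf1 held no match. A match is a description of letters and no measurement of E2F binding.

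The Tet genes were expressed in a fixed order in every mouse, Tet3 above Tet2 above Tet1, with no overlap of ranges. Tet3 (chromosome 6, 83362373 to 83459084) stood at 51.1, 58.5 and 49.9 TPM, with a mean of 53.2 ± 4.62 TPM (SD, n = 3). Tet2, the member most often mutated in human myeloid disease (chromosome 3, 133463679 to 133545139), stood at 39.8, 42.5 and 35.7 TPM, with a mean of 39.3 ± 3.42 TPM. Tet1, best known from embryonic stem cells (chromosome 10, 62804570 to 62908996), stood at 13.8, 12.5 and 11.5 TPM, with a mean of 12.6 ± 1.15 TPM. The 3 genes varied little between mice, with ranges of 1.17-fold to 1.20-fold.

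Shares of the Tet sum were stable between mice. Tet3 supplied 48.8%, 51.5% and 51.4% of it, Tet2 38.0%, 37.4% and 36.7%, and Tet1 13.2%, 11.02% and 11.9%. The summed Tet level was 105 ± 8.15 TPM (SD, n = 3). The summed level of Dnmt1, Dnmt3a and Dnmt3b was 1.78, 1.44 and 1.65 times the Tet sum. These ratios compare RNA levels, not enzyme activities.

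Idh2, the mitochondrial isocitrate dehydrogenase (chromosome 7, 80094846 to 80115392), was the highest of the 10 genes by mean, at 145, 106 and 110 TPM, a mean of 120 ± 21.4 TPM (SD, n = 3). In mouse 3 Uhrf1 was higher, at 124 TPM. Idh1, the cytosolic enzyme (chromosome 1, 65158616 to 65186500), stood at 21.5, 21.9 and 30.9 TPM, a mean of 24.8 ± 5.36 TPM. Idh2 was highest in mouse 1 and Idh1 in mouse 3, under both scalings. The ratio of Idh2 to Idh1 accordingly ran from 6.75 in mouse 1 through 4.85 in mouse 2 to 3.55 in mouse 3. The range over the mice was 1.44-fold for Idh1 and 1.36-fold for Idh2, below the 2-fold used as a call. Mouse 3, the high mouse of Idh1, was also the highest for 8 of 8 neutrophil markers. Their summed level was 2469, 6456 and 21481 TPM. Mouse 3 was the highest for 5 of the 5 erythroid markers with a mean of at least 1 TPM. Of all such genes, 20.3% were highest in mouse 3 as deposited and 30.5% after scaling. S100a8, a gene of the neutrophil list, alone had 1034, 2529 and 8646 TPM. As deposited, mouse 3 was also the highest for 11 of 14 S phase and cell cycle genes. Among markers with a mean of at least 1 TPM, it was the highest for 3 of 4 B cell and 3 of 4 macrophage genes. The same held, as deposited, for 3 of 5 T and NK cell and 3 of 5 megakaryocyte genes. It was the highest for 1 of 6 dendritic, 1 of 4 mast cell and basophil and 1 of 8 leukemia and progenitor genes. From mouse 1 to mouse 2 the neutrophil sum rose from 2469 to 6456 TPM, while Idh1 had 21.5 and 21.9 TPM. The part of cell composition or proliferation in the Idh1 level was not tested.

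Spread between mice was summarised as the SD of log2(TPM + 1). The median over the 9 enzyme genes with a mean of at least 1 TPM was 0.14, against 0.21 over all 15181 genes at that level. Dnmt3b had the widest spread, an SD of 0.55, at percentile 92.5 of those genes, followed by Idh1 at 0.29 and Idh2 at 0.24. The other 6 lay between 0.12 and 0.16, below the median of all genes. These comparisons were not matched for level, and the enzymes had the higher median level, 53.2 against 17.5 TPM. A 2-fold range was found for 13.8% of genes with a mean of at least 1 TPM. At a mean of at least 5 TPM it was found for 7.64%. The low median of the enzymes depended on mouse 1: without it the median over the enzymes was 0.16 and that over all genes 0.14.

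**Figure D4:**
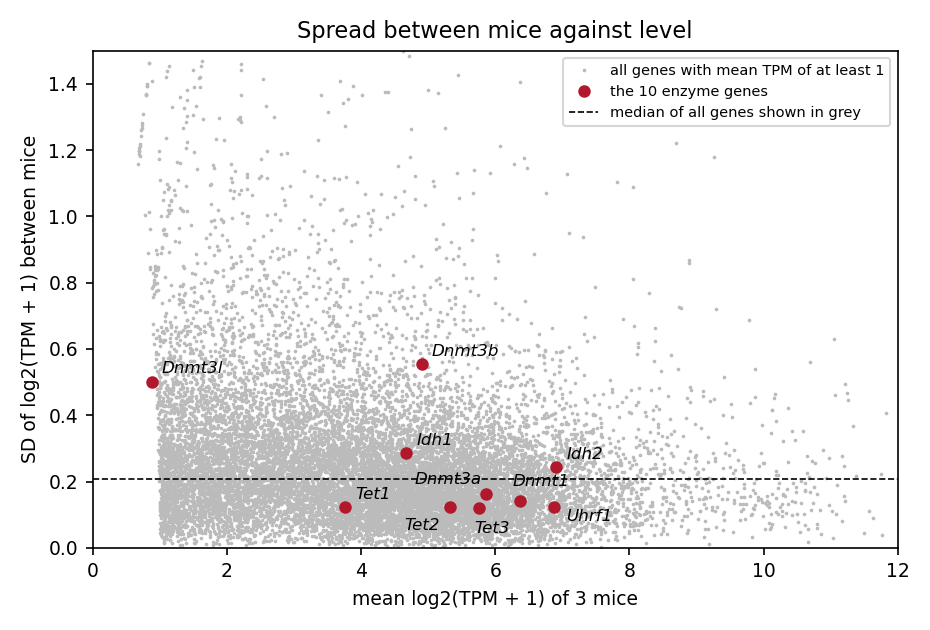
SD of log2(TPM + 1) between the 3 mice against the mean log2(TPM + 1), for all genes with a mean of at least 1 TPM (grey) and the 10 enzyme genes (red), with the median of the grey genes dashed. Dnmt3b and the low-level Dnmt3l lie far above the dashed line, Idh1 and Idh2 a little above it, and 6 genes below it, while 78 grey genes lie outside the axes.

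The mouse in which Dnmt3b was highest was compared with genes of leukemia and progenitor identity. Of 8 such genes, 5 were highest in mouse 1 under both scalings, against 48.6% of all genes as deposited and 35.6% after scaling. Among them Gata2, a stem and progenitor transcription factor, was the only 1 with a 2-fold range, at 44.3, 16.8 and 16.9 TPM, and mouse 1 was its high mouse, as for Dnmt3b. A 2-fold range was found for 13.8% of all genes with a mean of at least 1 TPM. Kit, the gene of the enrichment marker, was even, at 139, 149 and 133 TPM. Mpo, the most abundant of these genes, was highest in mouse 3, at 1081, 864 and 1632 TPM. Mast cell and basophil markers had summed levels of 87.1, 30.98 and 35.4 TPM, with 3 of 4 highest in mouse 1, and megakaryocyte markers had 66.2, 42.6 and 83.4 TPM, with 2 of 5 highest there. Other lists were low in mouse 1: neutrophil markers for 8 of 8 genes (2469, 6456 and 21481 TPM in sum) and dendritic markers for 5 of 6 (356, 788 and 527 TPM), under both scalings. Among markers with a mean of at least 1 TPM, mouse 1 was also the lowest for 4 of 5 T and NK cell genes. The same held for 3 of 4 B cell and 3 of 4 macrophage genes, under both scalings. It was the lowest for 2 of 5 megakaryocyte, 1 of 4 mast cell and basophil and 0 of 5 erythroid genes. Of all genes at that level, 24.4% were lowest in mouse 1 as deposited and 36% after scaling. The part of cell composition in the Dnmt3b level was not tested.

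Markers of other blood cells were set beside the labelled cell type. Of all symbols, 50.7% were at 1 TPM or more in every mouse. B cell, T and NK cell and macrophage lists had 2 of 6, 4 of 7 and 4 of 7 genes at 1 TPM or more in every mouse. Their summed levels were 47.4, 89.7 and 124 TPM for B cells, 167, 121 and 164 TPM for T and NK cells and 29.0, 46.7 and 58.8 TPM for macrophages. Members of a list differed widely. Cd3e and C1qa stayed below 1 TPM in each mouse, whereas Ighm had 32.2, 76.8 and 108 TPM, Nkg7 153, 101 and 143 TPM, and Csf1r 8.35, 15.6 and 24.8 TPM. Among 6 dendritic markers Clec9a had 184, 415 and 273 TPM and Siglech 3.05, 3.55 and 3.78 TPM. Other lists reached 1 TPM in every mouse more fully: neutrophil for 8 of 8 and dendritic for 6 of 6 genes found. Erythroid markers did so for 4 of 6, megakaryocyte for 4 of 5 and mast cell and basophil for 3 of 4. No marker found in any list was at 0 in all 3 mice. Genes detected per mouse numbered 14976 to 15108.

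The wider methylation pathway was described from lists in the same way. Of all symbols, 50.7% were detected at 1 TPM or more in all mice. A 2-fold range was found for 13.8% of genes with a mean of at least 1 TPM. At a mean of at least 5 TPM it was found for 7.64%, so few such ranges are usual in lists this short. Of 17 genes that recruit or regulate methyltransferases, 16 were detected in all mice and none had a 2-fold range. The highest was Pcna, the replication clamp that also binds Dnmt1, at 457.6, 441 and 516 TPM. Dppa3, a germ cell and zygote factor that holds back Uhrf1, was listed at 0 in all 3. Of the 3 relatives found, Uhrf2 was the highest, at 69.7, 62.7 and 64.1 TPM, so the ratio of Uhrf1 to Uhrf2 was 1.78 ± 0.136 (SD, n = 3). Of 9 Tet partners and regulators, 6 were detected in all mice and none had a 2-fold range. The highest was Ogt, the O-GlcNAc transferase that binds Tet proteins, at 140, 134 and 118 TPM.

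Downstream of the Tet enzymes, 12 of 14 genes of base excision repair and active demethylation were detected in all mice. Of all symbols, 50.7% were. Apex1, an endonuclease of that repair, was the highest, at 99.6, 72.5 and 79.4 TPM. Tdg, the glycosylase that removes oxidised methylcytosine, stood at 67.9, 58.3 and 53.7 TPM. Gadd45a, a stress gene proposed to act in demethylation, was the only 1 of the 12 with a 2-fold range, at 19.8, 17.9 and 36.5 TPM. Such a range was found for 13.8% of all genes with a mean of at least 1 TPM. After scaling Gadd45b, which was noticed only then, passed as well, with 11.2, 15.2 and 20.7 TPM as deposited. All 7 readers of methylated CpG were detected, none with a 2-fold range, and Mbd2 was both the highest and the most even, at 147, 145 and 147 TPM.

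Cofactor supply was described from 2 lists. The shares over all genes were again 50.7% of symbols detected in all mice and 13.8% of genes with a 2-fold range. Of 17 genes of S-adenosylmethionine and one-carbon metabolism, 15 were detected in all mice. Mat2a, which makes the methyl donor, was the highest, at 187, 184 and 162 TPM, while its liver form Mat1a was listed at 0. Gnmt, a methyltransferase that uses up the donor, was the only 1 with a 2-fold range, at 2.50, 1.95 and 1.10 TPM. All 16 genes of alpha-ketoglutarate supply and of its antagonists succinate, fumarate and hydroxyglutarate were detected, with no 2-fold range. Fh1, which removes fumarate, stood at 63.3, 45.3 and 47.6 TPM.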

How the data were processed

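RNA of c-Kit-enriched leukemic splenocytes from 3 mice was sequenced as stranded, paired-end reads of 150 nt, per the labels' protocols, which name both ribosomal depletion and an mRNA kit. The depth reached is unknown, TPM keeps no depth, and no counting interval is given. The authors deposited 1 table of linear TPM values per symbol: its name says log2 FPKM, but the columns were linear and summed to 929731, 927169 and 928490. The submitters' processing notes name kallisto and mm10, and the annotation is not given in the sources used here. Another 3 per-sample columns, of another series, were not used. Of 28987 rows, 795 without a symbol (0.532% to 0.608% of a column sum) and 27 with a calendar date in its place (0.179% to 0.202%) were left out, and rows of 1 symbol were summed.

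Per gene, the mean and SD over mice, the SD of log2(TPM + 1) and the ratio of highest to lowest mouse were computed, and called at 2-fold for genes with a mean of at least 1 TPM. With 1 group there is no test. The labels do not say whether the mice were littermates. The genes, lists and thresholds were chosen with earlier results of these data known. All 10 enzymes are named, as are, per pathway list, the highest gene and genes with a 2-fold range, plus S100a8, Mki67 and Kit. Other genes were named after their values were seen, and some results are not reported here. Overlaps, 3′ UTRs (the longest per gene) and shared words used GENCODE M21, and windows and the microRNA RefSeq tables, both on GRCm38, the assembly of mm10. Shared words were those of the transcript with the longest coding sequence per enzyme gene. The calculation was tested on simulated data. Alternatives covered the pseudocount, thresholds, upper-quartile scaling, rows sharing a symbol and each mouse left out. Python 3.11.15, numpy 2.4.6, pandas 2.3.3 and matplotlib 3.10.9 were used.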

Additional observations from a re-analysis of the deposited data

How the results depend on the processing

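No paired analysis was possible because a single group was studied. The scaling comparisons of the S phase and cell cycle list and of Dnmt1 with Uhrf1 were chosen after seeing the data. The number of enzymes at 1 TPM or more in all mice was 9 at every setting except the threshold of 0.1, where it was 10 (63.2% of all symbols). The number with a 2-fold range moved from 1 to 2 over genes with any value above 0, where Dnmt3l joins (32.2% of such genes), and to 0 after upper-quartile scaling (13.8%). It ranged from 0 to 1 when a mouse was left out: 0 without mouse 1 (5.46% of genes), 1 without mouse 2 (8.80%) and 0 without mouse 3 (7.98%). The number of overlapping neighbours in the order was 4 as deposited and after scaling, and 3 without any 1 mouse. The genes were sorted anew at each setting, so this count cannot say whether the order held. Without mouse 1 the mean log2 level of Uhrf1 was above that of Idh2, at 6.85 and 6.77. Idh1 was then above Dnmt3b, at 4.76 and 4.59, so these places in the order depended on mouse 1. The mean share of Dnmt3a in the Dnmt3 sum ranged from 62.1% to 71.6% when a mouse was left out, with 65.3% over all. The mean log2 level of Dnmt3l moved from 0.88 to -0.22 with a pseudocount of 0.1. Each enzyme has 1 row, so leaving out symbols on several rows could not change its level. Each difference between mice rests on 1 library per mouse, and without read counts the precision of the low Dnmt3l values is unknown.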
